A study of Mus musculus with 54 samples.

Results

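Small nucleolar RNAs (snoRNAs) and small Cajal body RNAs were followed across the livers of 54 mice, as the genes whose symbols begin with Snord, Snora or Scarna and a number. The rule found 100 genes among the 20162 entries of the table: 64 C/D box snoRNAs, 31 H/ACA box snoRNAs and 5 small Cajal body RNAs. The mice were male C57BL/6J wild-type animals that ate a high-fat diet from 8 weeks of age, were housed singly and received gelatin pellets every day for 20 weeks. The pellets of the 14 control mice held no di-isononyl phthalate (DINP), a plasticizer. The other groups were given 1.5 mg/kg bw/d (13 mice), 15 mg/kg bw/d (13 mice) or 150 mg/kg bw/d DINP (14 mice). Each mouse was a separate sample from the medial liver lobe, and every group shared the fattening diet, so the comparisons describe DINP in diet-fattened males and include no lean mice. The question was how the liver transcriptome differed at each dose.

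C/D box snoRNAs guide the methylation of ribose in ribosomal RNA by the enzyme fibrillarin (Fbl), and H/ACA box snoRNAs guide the conversion of uridine to pseudouridine by dyskerin (Dkc1). The Cajal body RNAs guide the same changes in the small nuclear RNAs of the spliceosome. Most are cut out of the introns of host genes, many of which encode ribosomal proteins, while a few, such as U3, U8 and U13, have promoters of their own and help to process or modify ribosomal RNA without being ordinary methylation guides. Mature snoRNAs as a rule carry no poly(A) tail. The libraries were made with QuantSeq, which primes on stretches of A at the 3′ end, so the values describe what this priming caught of each RNA, and may include tailed precursors and priming within a host transcript. They are not a measure of the total amount of each snoRNA.

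The sequences of 5 RNAs show what was measured: 3 C/D box RNAs and 2 H/ACA box RNAs, chosen because the values below turn on them. They are the annotated RNAs of GENCODE M21 on GRCm38. Snord89 lay at chr1:39548745-39548854 on the minus strand in an intron of the noncoding gene Gm15832, and Snord87 at chr1:9942463-9942549 on the minus strand in an intron of the noncoding gene Snhg6. Snord118 (U8; chr11:69073427-69073561, plus strand) had no host gene. Snora30 lay in an intron of Srcap (chr7:127527874-127528003, plus strand) and Snora21 in an intron of Rpl23 (chr11:97781639-97781775, minus strand). Capitals mark the C box (TGATGA) and the D box (CTGA) in the first 3 lines, and the H box (ANANNA) and the ACA box in the last 2 lines.

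Snord89: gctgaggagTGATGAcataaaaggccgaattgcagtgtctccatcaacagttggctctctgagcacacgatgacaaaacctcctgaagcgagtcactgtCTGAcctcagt
Snord87: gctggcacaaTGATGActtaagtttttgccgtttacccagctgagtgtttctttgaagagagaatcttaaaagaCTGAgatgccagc
Snord118: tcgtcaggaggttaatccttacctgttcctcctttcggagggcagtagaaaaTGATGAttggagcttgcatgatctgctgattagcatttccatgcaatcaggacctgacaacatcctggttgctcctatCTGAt
Snora30: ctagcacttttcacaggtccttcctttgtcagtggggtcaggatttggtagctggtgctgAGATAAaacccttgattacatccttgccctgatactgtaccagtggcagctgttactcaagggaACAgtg
Snora21: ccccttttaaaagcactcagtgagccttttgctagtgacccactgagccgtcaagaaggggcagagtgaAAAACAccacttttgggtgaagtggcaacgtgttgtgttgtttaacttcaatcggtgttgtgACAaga

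The letters of the boxes differed in frequency between the classes. TGATGA between the 5′ end and the middle of the RNA was found in 42 of 60 annotated C/D box members (70.0%), in none of the 31 H/ACA box members, and in 5.32% of 8443 other annotated genes of 60 to 300 bases. CTGA within the last 30 bases was found in all 60 C/D box members, in 7 of 31 H/ACA box members and in 21.2% of the other genes. The H box letters (bases 51 to 95) were found in 27 of 31 H/ACA box members (87.1%) against 47.1% of the other genes, and ACA within the last 8 bases in 29 of 31 (93.5%) against 17.1%. Both were also found in C/D box members, the H box letters in 19 of 60 (31.7%) and ACA in 6 of 60 (10.0%). Of the 5 Cajal body RNAs, 3 had the C box, 4 the D box, 2 the H box and 1 the ACA letters. The motifs were sought on the RNA strand alone and may overlap, and a match describes letters only. The annotated RNAs ran from 64 to 414 bases, with a median of 79.5 in the C/D box class and 133 in the H/ACA box class.

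Of the 100 genes, 96 were found in the annotation; Snord3a, Snord94, Snord73b and Snord138 were not. A host gene on the same strand held 88 members: 44 in an intron, 30 in an intron that an annotated transcript retains, and 14 in an exon of a transcript. The hosts numbered 67, of which 20 were ribosomal protein genes holding 27 members, and noncoding hosts held 21 members. The 8 members without a host had a median mean level of 6.01 against 1.52 for those in introns, and 3 of them (Snord13, Scarna17 and Scarna2) were above 0 in every mouse. Where an RNA lies inside an exon or a retained intron, its reads and those of the host transcript overlap, and both classes had low medians (0.978 and 1.23).

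Most members were near or under the limit of detection. Values are given here as scaled TPM, a length-corrected share of all transcripts, rounded to whole numbers and then divided by a factor for each mouse. Of the 5400 values of the 100 members, 73.7% were 0, against 36.5% for all entries of the table and 84.3% for 350 other genes of 55 to 220 bases. Only 5 members were above 0 in all 54 mice: Snord89, Snord13, Snord87, Scarna17 and Scarna2. At the other end, 79 members were at 0 in over 27 mice and 16 were above 0 in a single mouse. The share of values at 0 was 75.9% in the C/D box class, 73.5% in the H/ACA box class and 47.4% in the Cajal body class.

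**Figure D1:**
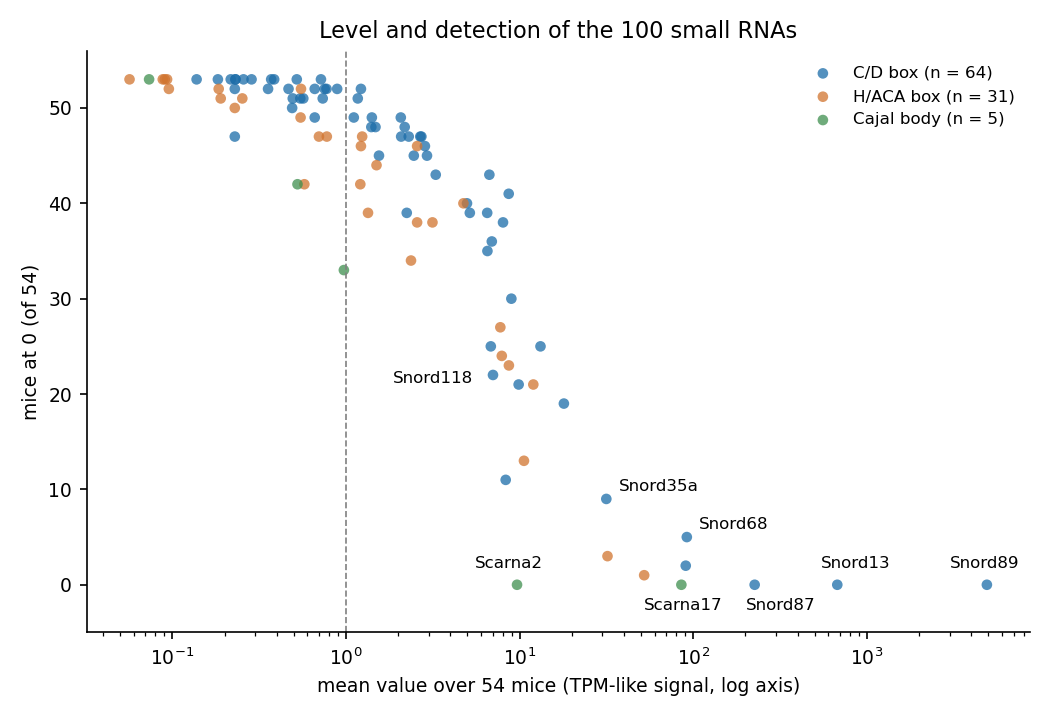
Mean level of each of the 100 RNAs over 54 mice (x axis, scaled TPM, log axis) against the number of mice in which it was listed at 0 (y axis), coloured by class. The dashed line is the minimum mean of 1 for testing; 5 RNAs sit at the bottom with no mouse at 0, and 79 lie above 27 mice.

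Snord89 alone made up 76.1% of the summed mean level of all members and was 23rd of all entries of the table by mean. Its mean was 4916, followed by Snord13 (U13; 676), Snord87 (226), Snord68 (91.9) and Snord55 (90.6) among the C/D box RNAs. The highest H/ACA box RNAs were Snora30 (52.2), Snora21 (32.1) and Snora28 (12.0). Of the Cajal body RNAs, Scarna17 had a mean of 85.5, Scarna2 of 9.67 and Scarna6 of 0.973. TPM are divided by length, and for RNAs this short that correction is large, so the order of these levels depends on it. By the fragment estimate given below, Scarna17 (79 bases) held 423 fragments over all mice and Scarna2 (414 bases) 470. Snora30 held 623 against 549 for Snord68 and 456 for Snord55, while Snord89 held 45660. The members with well-known roles in ribosomal RNA cleavage were low: U3 (Snord3a) had a mean of 6.83 and was at 0 in 25 mice, U8 (Snord118) a mean of 7.03 and 0 in 22 mice. U3 and U17 have near-identical gene copies, among which reads may be split, so their values are uncertain. Snora73a and Snora73b, the U17 RNAs, had means of 0.190 and 0.576, and Snord17 of 0.229. Scarna10 had a mean of 0.526.

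The size of the smallest values followed RNA length. Taking the scaling of each mouse out, the values were whole numbers, and the lowest above 0 was 1 for Scarna2 (414 bases), 4 for Snora21 (137 bases), 8 for Scarna17 (79 bases) and 12 for Snord104 (70 bases). This pattern gave an estimate, made after the values were seen, of what 1 sequenced fragment was worth in each mouse: a constant of that mouse divided by the RNA's length less 43 bases. Of 467 member values below 2.5 fragments that rounding could move by less than 0.12 of a fragment, 88.4% lay within 0.2 of a whole number of fragments, and the constant from the members agreed within 10% with that from the 350 other short genes in 52 of 54 mice. By this estimate, 30.8% of the member values above 0 rested on fewer than 1.5 fragments and 55.8% on fewer than 3.5. In the median control mouse, 1 fragment of a 79-base RNA was worth 9.87 and 1 fragment of a 137-base RNA 3.78. The same fragment was worth more at 150 mg/kg bw/d (12.4 and 4.75), so a low RNA could differ in value without a difference in fragments. The deposited values hold no counts, so the depth itself is unknown, and this estimate carries no interval.

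**Figure D2:**
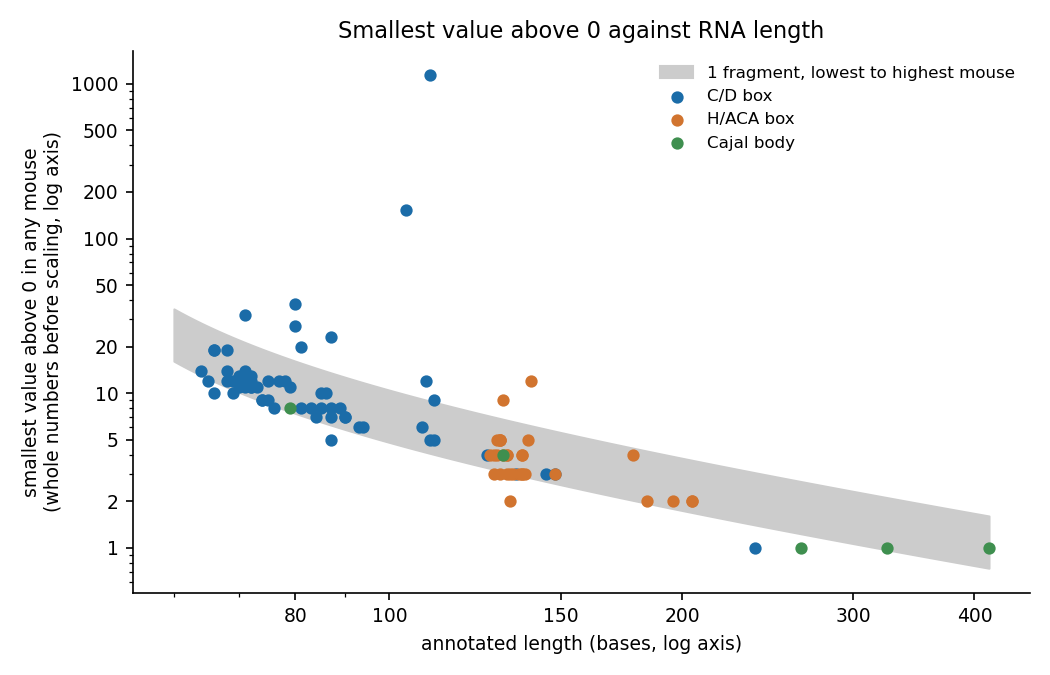
Smallest value above 0 in any mouse for each annotated RNA, as whole numbers before scaling (y axis, log axis), against annotated length in bases (x axis, log axis), coloured by class. The grey band is the value of 1 fragment from the lowest to the highest mouse; most RNAs lie in or near it, while Snord89 (1135) and Snord13 (153) lie far above.

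Before the groups are compared, 8 libraries have to be set out. On the first principal component of the features that are not members (14.0% of the variance), 8 libraries scored at least 24.8 and the other 46 at most 7.4. They were control replicate 1, replicate 10 at 150 mg/kg bw/d and replicates 4 to 9 at 15 mg/kg bw/d. The labels name no batch. Among the mice at 15 mg/kg bw/d the 6 libraries apart held 1255 to 2482 of Snord89 and the other 7 held 2334 to 8648. Scarna2 went the other way, with 13.0 to 52.0 in the 6 and 1.95 to 8.70 in the 7. The summed mitochondrial tRNAs, which are short RNAs outside the rule, ran from 3900 to 11144 in the 6 and from 11222 to 38633 in the 7. The members above 0 numbered 13 to 23 in the 6 and 19 to 40 in the 7. Over all 54 mice, Pearson's r with the component was −0.80 for Snord89, −0.70 for Scarna17, −0.67 for Snord87, −0.60 for Snord13, 0.68 for Scarna2 and −0.13 for Snord118. The calls below are therefore given with all libraries and without these 8, which leaves 13, 13, 7 and 13 mice, and a value with no second figure beside it is for all libraries. What set the libraries apart was not tested.

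**Figure D3:**
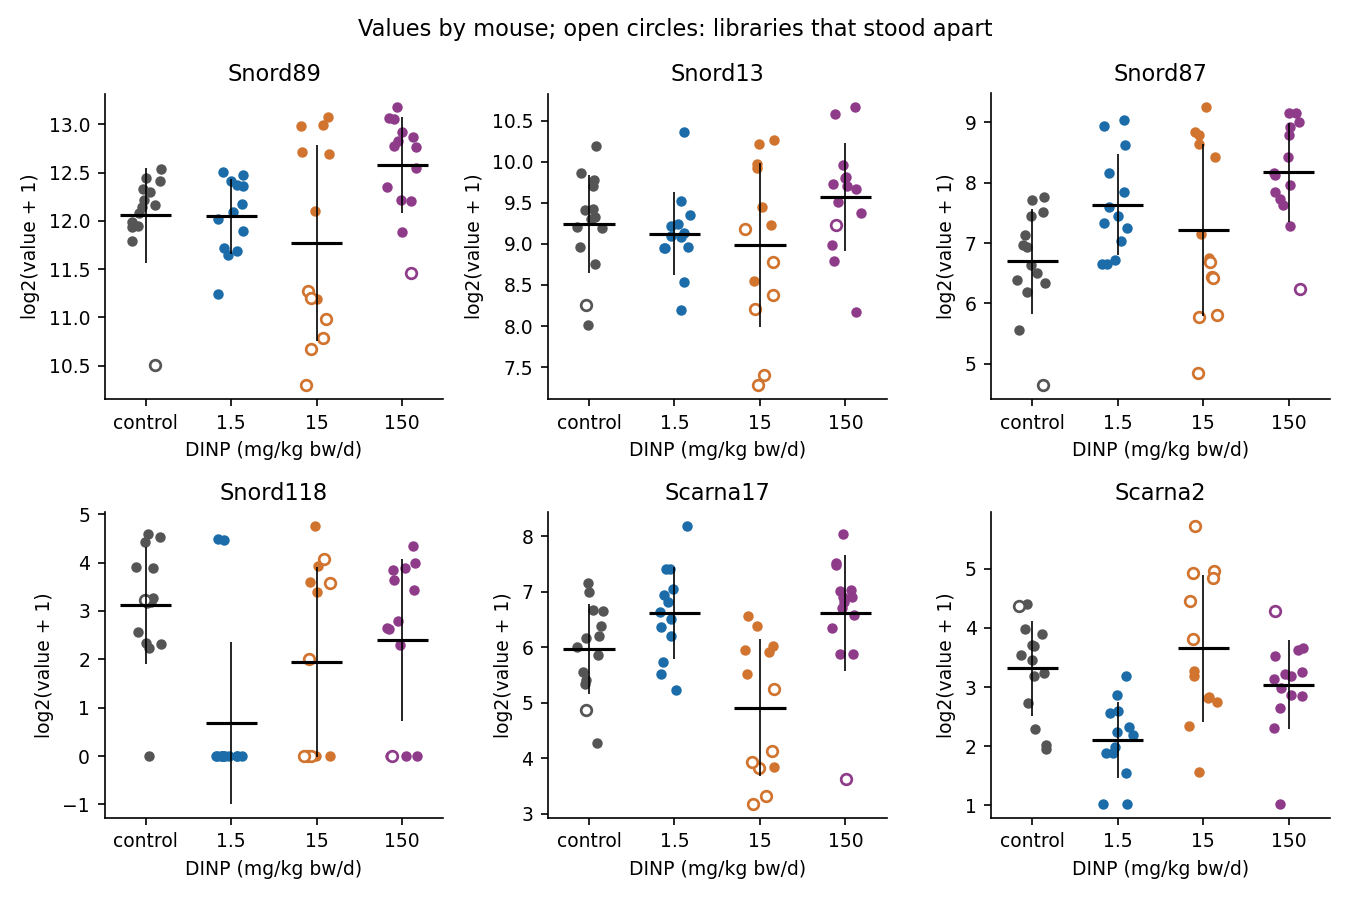
Values of 6 RNAs in each mouse on the log2(value + 1) scale (y axis) by DINP dose (x axis). Points are mice, open circles the 8 libraries that stood apart, horizontal lines group means and vertical lines 1 SD. Among the mice at 15 mg/kg bw/d the open circles form the lower part of Snord89 and the upper part of Scarna2.

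The members were tested with limma on log2(value + 1) among all 11431 features with a mean of at least 1, and called where the adjusted p was under 0.05 and the log2FC beyond 0.5. This left 58 members: 39 C/D box, 17 H/ACA box and 2 Cajal body RNAs. Just inside the filter were Snord12 (1.11) and Snord57 (1.17), and just outside Scarna6 (0.973) and Snord19 (0.890).

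At 150 mg/kg bw/d, Snord87, a C/D box RNA of the Snhg6 locus, was the 1 member of 58 called against control; 0.840% of all features were called. In the control mice Snord87 ran from 23.9 over a median of 110 to 217, and at 150 mg/kg bw/d from 74.9 over 282 to 572. The ranges overlapped, but the median of the dose group lay above the highest control mouse. The log2FC was 1.48 ± 0.37 (SE; limma, adjusted p = 0.0179), and 1.47 (adjusted p = 0.00106) without the 8 libraries, when 1.09% of features were called. Means were 118 ± 59.4 (SD, n = 14) in control, 233 ± 147 (n = 13) at 1.5, 223 ± 196 (n = 13) at 15 and 328 ± 160 (n = 14) at 150 mg/kg bw/d. With 15 mg/kg bw/d its log2FC was 0.52 with all libraries and 1.41 (adjusted p = 0.00771) without the 8. At 1.5 mg/kg bw/d it was 0.94 (adjusted p = 0.256), or 0.79 (adjusted p = 0.140) without them. In bulk liver, a change in the share of a cell type and a change in RNA per cell cannot be told apart.

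The host of Snord87 did not pass the test at the dose where Snord87 was called. Snhg6, a noncoding host gene with a mean of 48.7, had a log2FC of −0.09 at 150 mg/kg bw/d (adjusted p = 0.810) and −0.26 at 1.5 mg/kg bw/d (adjusted p = 0.368). At 15 mg/kg bw/d it was 0.46 higher (adjusted p = 0.00683), or 0.14 (adjusted p = 0.550) without the 8 libraries. Snord89 had a log2FC of 0.52 ± 0.24 at 150 mg/kg bw/d (adjusted p = 0.287, or 0.49 with adjusted p = 0.0677 without the 8), with a median of 6981 against 4558 in control, and its host Gm15832 (mean 11.6) one of 0.22 (adjusted p = 0.662).

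No other member passed the test at 150 mg/kg bw/d, but 11 of 58 had an unadjusted p under 0.05, all of them higher than in control; 14.0% of all features had such a p. Of 92 other tested genes of 55 to 220 bases, 15 had one, and 10 of those were higher. The 11 were the C/D box RNAs Snord55, Snord68, Snord71, Snord87, Snord89 and Snord94 and the H/ACA box RNAs Snora16a, Snora21, Snora30, Snora64 and Snora7a. Snora30 had a median of 33.4 in control and 77.9 at 150 mg/kg bw/d, with a log2FC of 1.49 ± 0.46 (adjusted p = 0.0740, or 1.13 with adjusted p = 0.111 without the 8 libraries). Snora21 had medians of 22.0 and 46.9 and a log2FC of 1.10 (adjusted p = 0.307, or 1.11 with adjusted p = 0.189 without the 8). Snora7a was above 0 in 1 of 14 control mice and 7 of 14 dosed mice (log2FC 1.88, adjusted p = 0.129, or 2.02 with adjusted p = 0.102 without the 8). Snora16a was above 0 in 3 and 9 of 14 mice (1.79, adjusted p = 0.192, or 1.93 with adjusted p = 0.123 without the 8). Snord83b had the third largest rise (1.60), and the largest falls were those of Snord4a (−1.22), Snord118 (−0.72) and Snord104 (−0.69), none past the test.

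By class, the median log2FC at 150 mg/kg bw/d was 0.29 for the C/D box RNAs, 0.70 for the H/ACA box RNAs and 0.40 for all 58, against −0.01 for all tested features and 0.35 for the 92 other short genes. Of the 17 H/ACA box RNAs, 15 were above 0. Without the 8 libraries the medians were 0.31, 0.73 and 0.44. In estimated fragments, the H/ACA box RNAs summed to a mean of 30.4 ± 18.4 per mouse in control and 47.6 ± 24.4 at 150 mg/kg bw/d, and the C/D box RNAs other than Snord89 to 168 ± 54.5 and 195 ± 74.0. The constant that sets the worth of a fragment was itself higher in the dosed mice, at 359 ± 42.6 in control, 391 ± 55.3, 427 ± 80.5 and 443 ± 71.8 with rising dose. With this constant as a covariate, 2 members were called at 150 mg/kg bw/d (Snord87 and Snora7a), and 1.18% of features. In that fit 14 of 58 members had an unadjusted p under 0.05, against 15.7% of features. The part of the constant in the class medians was not tested.

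**Figure D4:**
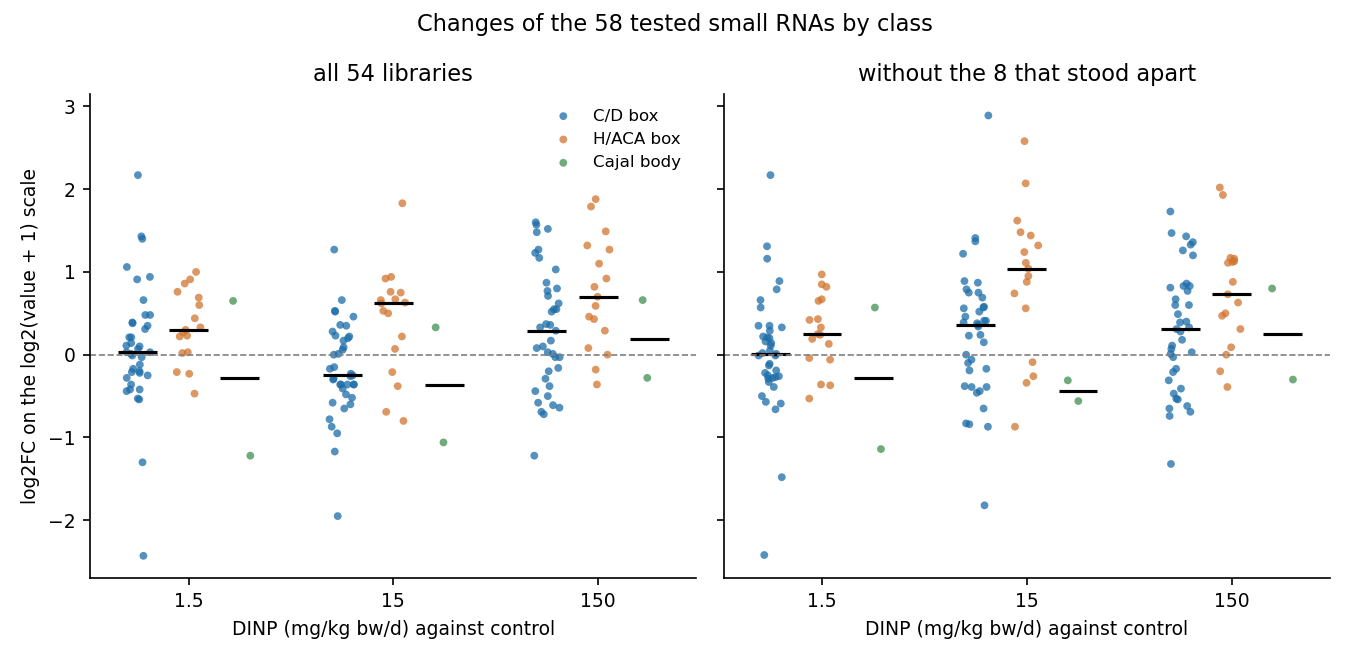
log2FC of the 58 tested RNAs against control (y axis, log2(value + 1) scale) at 3 DINP doses (x axis) by class, with all 54 libraries (left) and without the 8 that stood apart (right). Points are RNAs and black lines class medians; at 15 mg/kg bw/d the C/D box median is −0.25 on the left and 0.36 on the right.

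At 1.5 mg/kg bw/d, 2 of the 58 members were called, both lower than in control; 0.367% of all features were called. U8 (Snord118), which is needed to process the RNA of the large ribosomal subunit, was above 0 in 13 of 14 control mice and in 2 of 13 mice at 1.5 mg/kg bw/d. Its values ran from 0 over a median of 8.21 to 23.1 in control and from 0 over 0 to 21.3 in the dose group. The log2FC was −2.43 ± 0.61 (adjusted p = 0.0355), or −2.42 (adjusted p = 0.0193) without the 8 libraries, when the same 2 members and 0.551% of features were called. The estimate of fragments gives 39 over the 14 control mice and 11 over the 13 dosed mice. At the higher doses U8 was above 0 in 7 of 13 and 10 of 14 mice, with log2FC of −1.17 (adjusted p = 0.212) and −0.72 (adjusted p = 0.641). Leaving out 1 mouse at a time kept the call in 16 of 27 fits, and it was lost without control replicate 1, 6 or 13 or without replicate 1, 3, 5, 8, 9, 10, 12 or 13 at 1.5 mg/kg bw/d (adjusted p up to 0.0658).

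Scarna2, a Cajal body RNA that guides modification of U2 small nuclear RNA and has no host gene, was also lower at 1.5 mg/kg bw/d. It ran from 2.88 over a median of 10.3 to 20.3 in control and from 1.03 over 3.58 to 8.12 in the dose group, so that the ranges overlapped. The log2FC was −1.22 ± 0.33 (adjusted p = 0.0460), and −1.14 (adjusted p = 0.00942) without the 8 libraries. The adjusted p lay so near the threshold that the call held in 5 of 27 fits that left out 1 mouse (control replicate 8, 11 or 14, or replicate 7 or 11 at 1.5 mg/kg bw/d), with log2FC between −1.32 and −1.13. With 15 mg/kg bw/d its log2FC was 0.33 with all libraries and −0.56 without the 8, neither past the test (adjusted p = 0.555 and 0.325). At 150 mg/kg bw/d it was −0.28 (adjusted p = 0.759). With the first component as a covariate, Scarna2 was not called at 1.5 mg/kg bw/d. Scores on that component ran from −24.4 to 6.0 at this dose. In control they ran from −13.0 to 3.6 outside replicate 1 (29.5). The covariate may thus take out part of a difference between the groups, which was not tested.

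A nuclear RNA moved in the same group. Malat1, a long noncoding RNA of nuclear speckles, had a log2FC of −0.53 at 1.5 mg/kg bw/d (adjusted p = 0.0178, or −0.49 with adjusted p = 0.00745 without the 8). It was the 1 called of 3 tested genes of a list of nuclear RNAs (Malat1, Neat1, Meg3 and Kcnq1ot1), whose median log2FC was −0.11. The sum of the list ran from 2456 to 4531 in control and from 1564 to 2790 in the dose group. Malat1 made up nearly all of it, at 1550 to 2760 in the dose group. The part of this in the values of U8 and Scarna2 was not tested.

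The largest other differences at 1.5 mg/kg bw/d did not pass the test. Snord71 was at 0 in all 14 control mice and above 0 in 7 of 13 dosed mice (log2FC 2.17 ± 0.62, adjusted p = 0.0658, or 2.17 with adjusted p = 0.0699 without the 8). Snord35a and Snord70 followed with log2FC of 1.43 and 1.40, and Snord4a with −1.30. In all, 6 of 58 members had an unadjusted p under 0.05, against 12.3% of all features. The class medians were 0.03 (C/D box), 0.30 (H/ACA box) and −0.28 (Cajal body), against 0.16 for the 92 other short genes. The Cajal body median covers 2 RNAs, 1 above and 1 below 0.

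At 15 mg/kg bw/d the calls depended on the 8 libraries. With all mice, Scarna17, a Cajal body RNA without a host gene, was the 1 member of 58 called, and 3.72% of all features were called. It ran from 18.4 over a median of 67.1 to 142 in control and from 8.03 over 36.8 to 94.1 in the dose group, with a log2FC of −1.06 ± 0.37 (adjusted p = 0.0446). Without the 8 libraries the log2FC was −0.31 (adjusted p = 0.674). The 6 libraries apart held 8.03 to 36.8 and the other 7 held 13.3 to 94.1. Leaving out 1 mouse kept the call in 11 of 27 fits, those without control replicate 1, 2, 5, 7 or 11 or without replicate 2, 3, 10, 11, 12 or 13 of the dose group.

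Without the 8 libraries, 3 members were called at 15 mg/kg bw/d, all higher than in control, and 1.22% of all features were called. They were Snord87 (1.41, adjusted p = 0.00771), Snord22 (2.89, adjusted p = 0.0253) and Snora23 (1.62, adjusted p = 0.0363). Snord22 (U22), in an exon of a transcript of the noncoding host Snhg1, was above 0 in 6 of the 13 control and all 7 dosed mice of this fit, and over all libraries in 7 of 14 and 9 of 13. Snora23 was above 0 in 2 of 13 and 5 of 7 mice of this fit. It rested on few molecules, with an estimated 3 fragments in control and 12 in the dose group over all libraries. With all libraries these log2FC were 0.52, 1.27 and 0.94, none past the test (adjusted p = 0.388, 0.258 and 0.123). Of the remaining named members, Snora16a had a log2FC of 1.83 with all libraries (adjusted p = 0.0736, or 2.58 with adjusted p = 0.0601 without the 8) and Snord4a one of −1.95 (adjusted p = 0.0929, or −1.82 with adjusted p = 0.333 without the 8). Unadjusted, and with all libraries, 4 of 58 members had a p under 0.05, against 27.0% of all features.

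The C/D box median turned with the libraries as well. At 15 mg/kg bw/d the C/D box median was −0.25 with all libraries and 0.36 without the 8. The H/ACA box median was 0.62 and 1.04. The Cajal body median was −0.36 and −0.43, over 2 RNAs of which 1 was above and 1 below 0 with all libraries. The median of all tested features was −0.00 and −0.004 in those fits, and that of the 92 other short genes −0.02 with all libraries.

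With all libraries, the contrasts of 15 mg/kg bw/d with another DINP dose called a larger share of all features than any dose against control. At 1.5 against 15 mg/kg bw/d, 4 of 58 members and 7.15% of all features were called. Scarna17 (1.71), Snora2b (1.21) and Snord70 (2.35) were higher and Scarna2 (−1.55) lower at 1.5 mg/kg bw/d. Snord70 was above 0 in 8 of 13 mice at 1.5 and in 1 of 13 at 15 mg/kg bw/d, and Snora2b in 7 and 1 of 13. The call of Snora2b was lost without replicate 9 of the lower dose (adjusted p = 0.0551). None of the 4 was called without the 8 libraries, when 1 member (Snord22, −2.87) and 1.21% of features were. At 15 against 150 mg/kg bw/d, 3 members and 6.73% of all features were called: Scarna17 (−1.72), Snord68 (−2.39) and Snord89 (−0.81). Of these, Scarna17 was still called without the 8 libraries (−1.11, adjusted p = 0.0361; 2.81% of features called), while Snord68 and Snord89 had log2FC of −0.70 and −0.13.

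At 1.5 against 150 mg/kg bw/d, limma called 0 of 58 members and 1.64% of all features, and 7 members and 18.0% of features had an unadjusted p under 0.05. Without the 8 libraries, of which 1 belonged to this contrast, 4 members and 1.98% of features were called, all 4 lower at 1.5 mg/kg bw/d. They were Snord89 (−0.62), Scarna2 (−0.84), Snora21 (−1.47) and Snord118 (−1.89). In the test over all 4 groups, 7 of 58 members (Scarna17, Scarna2, Snord118, Snord68, Snord71, Snord87 and Snord89) and 26.7% of all features had an adjusted p under 0.05. Without the 8 libraries it was 6 members and 15.3%.

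The number of mice in which each member was above 0 was compared on its own with 2-sided Fisher's exact tests. No member and 0% of all features passed at any dose after adjustment. The lowest unadjusted p was that of Snord118 at 1.5 mg/kg bw/d (exact p = 6.88e-05, adjusted p = 0.603). Unadjusted, 3 of 88 members had an exact p under 0.05 at 1.5 mg/kg bw/d (Snora2b, Snord118 and Snord71; 1.85% of features). There were 2 of 80 at 15 mg/kg bw/d (Snora16a and Snord118; 2.52%), and 2 at 150 mg/kg bw/d (Snora7a and Snord71; 1.78%). With the 8 libraries left out none passed after adjustment, and unadjusted there were 2 at 1.5 (Snord118 and Snord71; 1.13%), 3 at 15 (Snora16a, Snora23 and Snord22; 1.49%) and 3 at 150 mg/kg bw/d (Snora16a, Snora7a and Snord71; 2.09%). The members above 0 in a mouse numbered 24.9 ± 5.66 in control, 27.0 ± 5.69, 23.8 ± 8.62 and 29.2 ± 7.32 with rising dose. All features above 0 went from 12935 ± 469 in control to 12639 ± 151 at 150 mg/kg bw/d. The share of H/ACA box values at 0 was 78.3% in control and 72.5%, 73.7% and 69.6% with rising dose. For the C/D box RNAs it was 75.7% in control and 75.1%, 79.3% and 73.5%. For the Cajal body RNAs it was 47.1% in control and 49.2%, 50.8% and 42.9%, and for all features 35.8% and 35.9%, 36.9% and 37.3%.

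Among the 5 RNAs above 0 in every mouse, Snord89 and Snord87 varied together within groups. Over the 46 libraries that did not stand apart, with group means removed, Pearson's r was 0.57 and Spearman's rho 0.61 (permutation p = 0.000200 and 4.00e-05, adjusted p = 0.00200 and 0.000400 over 10 pairs). Without the 2 mice farthest from the median of Snord89 r was 0.59, and within control and the 3 dose groups it was 0.37, 0.38, 0.84 and 0.65. Snord89 and Snord13 had r = 0.51 and rho = 0.45 (permutation p = 0.000430 and 0.00275, adjusted p = 0.00215 and 0.0137), and r = 0.38 without the 2 farthest. The other 8 pairs did not pass the adjusted test. Of 7 pairs of a member and its host, none did: r was −0.17 for Snord87 and Snhg6, −0.09 for Snord89 and Gm15832, −0.35 for Snora21 and Rpl23, and 0.04 for Snora30 and Srcap. All these values share the library and its scaling. Over the same 46 libraries, with group means kept, r with the first component was −0.49 for Snord89, −0.48 for Snord87 and −0.31 for Snord13, and its part in these correlations was not tested.

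**Figure D5:**
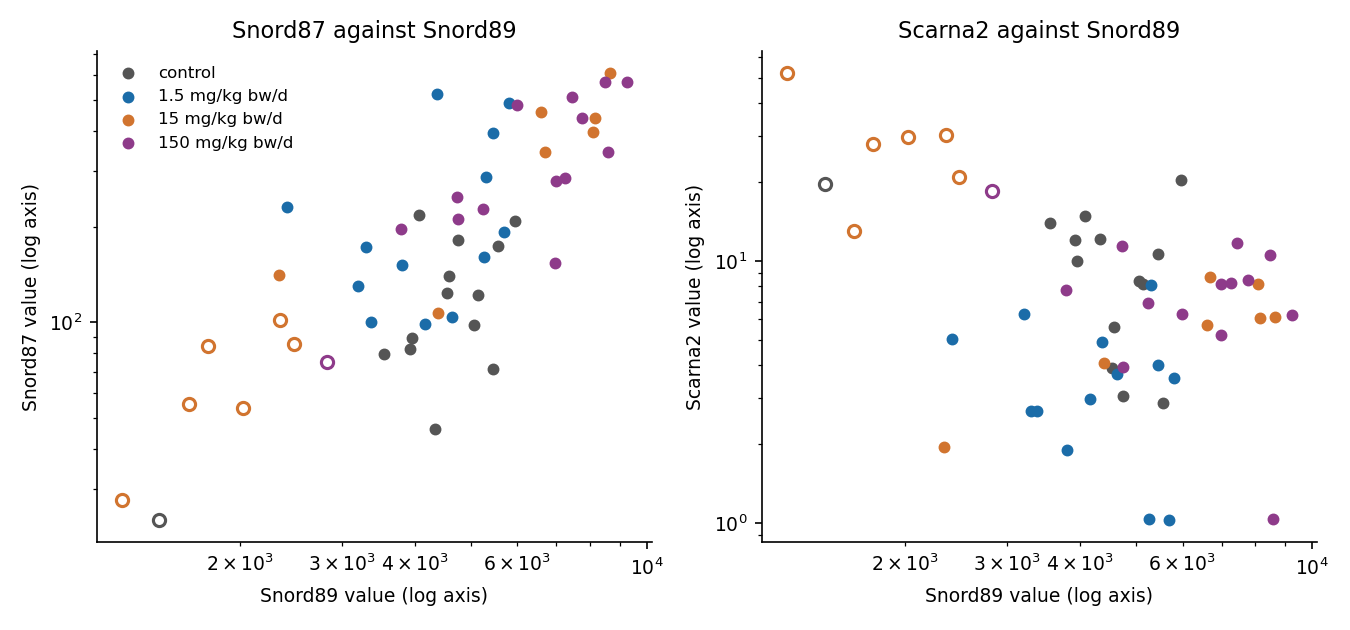
Snord87 (left) and Scarna2 (right) against Snord89 in 54 mice (both axes scaled TPM, log axes), coloured by group, with open circles for the 8 libraries that stood apart. Snord87 rose with Snord89, while the open circles are low in Snord89 and high in Scarna2.

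The proteins that build and use these RNAs were set beside all features, of which 1.20%, 14.2% and 2.17% had an adjusted p under 0.05 with rising dose. Of 4 tested core proteins of the C/D box particles and 4 of the H/ACA box particles, none had an adjusted p under 0.05 at any dose. Fbl had log2FC of 0.21, 0.13 and −0.07 with rising dose, and Dkc1 of 0.21, −0.25 and 0.24. None of 11 assembly factors did either. Of 19 tested genes of the Cajal body and its SMN complex, 1 was called, Ncbp2, a subunit of the nuclear cap-binding complex (0.59 at 150 mg/kg bw/d, adjusted p = 0.0102, or 0.60 with adjusted p = 0.00427 without the 8). Strap rose by less than the limit at 15 mg/kg bw/d (0.25, adjusted p = 0.00486, or 0.14 with adjusted p = 0.241 without the 8), and Coil, the coilin of the Cajal body, had log2FC of −0.29, 0.00 and −0.20.

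Of 28 tested partners of U3 and U8, only Utp6 had an adjusted p under 0.05 (−0.34 at 15 mg/kg bw/d, adjusted p = 0.0108, or −0.17 with adjusted p = 0.383 without the 8). At that dose 14.2% of all features had one. Of 21 genes for trimming and decay of snoRNA ends, the exosome subunit Exosc3 (0.44, adjusted p = 0.0289, or 0.14 with adjusted p = 0.586 without the 8) and the poly(A) polymerase Tent4b (−0.41, adjusted p = 5.57e-05, or −0.26 with adjusted p = 0.0217 without the 8) had one, both at 15 mg/kg bw/d. Of 16 RNA polymerase I and nucleolar genes, 1 was higher and 2 were lower at 15 mg/kg bw/d with an adjusted p under 0.05. Npm1 and Ncl are the ones named here. Npm1, nucleophosmin, was called at 15 mg/kg bw/d (0.53, adjusted p = 5.78e-05, or 0.42 with adjusted p = 0.0101 without the 8). Ncl, nucleolin, a host of Snora75 and Snord82, was lower at 1.5 mg/kg bw/d (−0.44, adjusted p = 0.00387, or −0.45 with adjusted p = 0.000633 without the 8) and at 15 mg/kg bw/d (−0.25, adjusted p = 0.0352, or −0.23 with adjusted p = 0.154 without the 8). Of 18 tested noncoding host genes, Snhg9 was called at 15 mg/kg bw/d (−0.72, adjusted p = 0.000841, or −0.25 with adjusted p = 0.272 without the 8). Gas5, a host of Snord47 and Snord78, was higher at that dose by less than the limit (0.47, adjusted p = 0.000761, or 0.26 with adjusted p = 0.122 without the 8), as was Snhg6.

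Of the 67 host genes, 64 were in the table and 63 were tested, and the median of the host means was 46.7. With an adjusted p under 0.05, 1 host was higher and 1 lower at 1.5 mg/kg bw/d, 12 higher and 5 lower at 15 mg/kg bw/d, and 2 higher and none lower at 150 mg/kg bw/d. Of all features, 1.20%, 14.2% and 2.17% had such a p. Without the 8 libraries the hosts past the test numbered 6, 7 and 3, and the features 2.53%, 5.31% and 3.62%. The host Rpl13a was higher at 15 mg/kg bw/d (0.72, adjusted p = 0.000108, or 0.39 with adjusted p = 0.0186 without the 8), while its C/D box RNA Snord35a had a median of 20.9 in both groups. Rcc1, whose span holds Snora73a and Snora73b, was lower at 15 mg/kg bw/d (−0.94, adjusted p = 4.86e-06, or −0.64 with adjusted p = 0.00659 without the 8). Rpl23, the host of Snora21, was higher at this dose (0.35, adjusted p = 0.00158, or 0.30 with adjusted p = 0.0152 without the 8). Higher with all libraries were also Rpl32, the host of Snora7a (0.33, adjusted p = 0.00522, or 0.10 with adjusted p = 0.430 without the 8), Ipo7, that of Snora23 (0.25, adjusted p = 0.0458, or 0.06 with adjusted p = 0.778 without the 8), and Rps2, that of Snora64 (0.35, adjusted p = 0.0222, or 0.34 with adjusted p = 0.0888 without the 8). Rpl17 was higher at each dose (0.40, 0.42 and 0.31; adjusted p = 0.00387, 0.000123 and 0.0151), and without the 8 libraries by 0.38, 0.26 and 0.26 (adjusted p = 0.000972, 0.0487 and 0.0219). The hosts of Snord68 (Rpl13), Snora30 (Srcap), Snord70 (Nop58), Snora2b (Kansl2), Snord71 (Ap1g1) and Snord22 (Snhg1) did not pass the test at any dose.

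The tissue was liver by its markers, with 6 hepatocyte genes summing to 24108 to 53412 over the mice of all groups together. No gene of the lists for hepatocytes, Kupffer cells, stellate cells, cholangiocytes, lymphocytes or red blood cells was called at any dose. The endothelial marker Pecam1 was lower at 15 mg/kg bw/d (−0.52, adjusted p = 0.000867, or −0.28 with adjusted p = 0.130 without the 8). The adipocyte list summed to 5.10 to 52.7 at 150 mg/kg bw/d against 0.764 to 11.2 in control, through Cfd alone (2.07, adjusted p = 0.00335), the 1 of its 4 genes that passed the filter. Its defining genes Adipoq, Plin1 and Lep had mean levels of 0.224, 0 and 0 in that dose group. A list of other short RNAs summed to 57.3 to 206 at 150 mg/kg bw/d against 18.7 to 102 in control, with Rny1 and Rny3, 2 Y RNAs, at log2FC of 2.00 and 0.87, not past the test (adjusted p = 0.130 and 0.341). The part of these in the values of the members was not tested.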

How the data were processed

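Total RNA was extracted from the medial liver lobe and made into QuantSeq 3′ mRNA-Seq V2 FWD libraries. Reads were run by the authors through the nf-core/rnaseq pipeline with GRCm38 as genome, which named STAR, Salmon and RSEM. The deposited signal values are TPM that the authors rounded to whole numbers and divided by a factor per mouse: in each mouse they are multiples of 1 step (0.764 to 1.11), and the whole numbers sum to 948342 to 980641. The table holds no counts, so the depth per mouse is unknown and no count test was run.

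Groups were taken from the sample labels. All 4 groups entered 1 limma fit of log2(value + 1) (limma 3.58.1, R 4.3.3; lmFit, then eBayes allowing a trend), for features with a mean of at least 1, with Benjamini-Hochberg adjustment over all of them. In the median control mouse, 1 fragment of a 79-base or 137-base RNA was worth 9.87 or 3.78, above the pseudocount of 1. A mouse going from 0 to 1 fragment can therefore weigh heavily in the log2FC of a low RNA. Fisher's exact tests, group medians, correlations with 100000 permutations (python 3.11.15, scipy 1.17.1) and the fragment estimate were added. The fragment estimate and the fits without the 8 libraries that stood apart were chosen after seeing the data. The scripts were tested on simulated data. No pairing of mice by replicate number was described. Over 79 same-number pairs in different groups the mean correlation of deviations was −0.002 (−0.36 to 0.24). Over 1014 other pairs it was 0.001 (−0.38 to 0.53). A mean over pairs cannot exclude that some mice were paired.

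The members and lists were chosen with earlier results of these data known. The RNAs named with values are those called in any test, the 3 highest per class, the 3 largest rises and falls per dose, RNAs with roles of their own, their hosts, those at the filter's edge, and list genes past the test (at most 5 per list). Alternatives are described at the end. Positions and sequences are from GENCODE M21. Some items are not reported here.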

Additional observations from a re-analysis of the deposited data

How the results depend on the processing

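No called log2FC changed sign under any alternative, and Snord87 at 150 mg/kg bw/d was called in all 42. The numbers of called members that moved by more than 1.5 times are given next, against those of the report. For 1.5 mg/kg bw/d against control (2), pseudocount 5, no filter and a Wilcoxon rank-sum test gave 0. The first component as a covariate gave 1 (Snord118, without Scarna2). For 15 mg/kg bw/d against control (1), pseudocount 5, no filter, only the 2 groups compared, the Wilcoxon test and the fragment constant as a covariate gave 0. Leaving out the 8 libraries gave 3 (Snora23, Snord22 and Snord87). Taking the first component as a covariate also gave 3, but with Snora16a in place of Snord22. For 150 mg/kg bw/d against control (1), the fragment constant gave 2. For 1.5 against 15 mg/kg bw/d (4), leaving out the 8 libraries gave 1 (Snord22) and taking the first component as a covariate gave 1 (Snord89). For 1.5 against 150 mg/kg bw/d (0), array quality weights gave 3, the 8 libraries left out 4, the first component 2, only the 2 groups 2 and the Wilcoxon test 1. For 15 against 150 mg/kg bw/d (3), pseudocount 5 and a mean of at least 5 gave 5, the fragment constant 6, the 8 libraries left out 1, the first component 0 and the Wilcoxon test 1. Over all 4 groups (7), the Kruskal-Wallis test gave 3. The cause of these was not tested. Leaving out the 8 libraries and both covariates were chosen after seeing the data.

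Without 1 mouse, the called members numbered 0 to 3, 0 to 2 and 1 to 2 for the 3 doses against control, 3 to 6 for 1.5 against 15, 0 to 1 for 1.5 against 150 and 3 to 6 for 15 against 150 mg/kg bw/d, and the Fisher tests 0 to 0. The replicate number was also taken as a block, although no pairing of mice was described. In that fit the called members numbered 1 for the lowest, 0 for the middle and 2 for the highest dose against control. They numbered 4 for 1.5 against 15, 0 for 1.5 against 150 and 4 for 15 against 150 mg/kg bw/d, and 6 over the 4 groups. Of the protein and host lists, 0 genes were called at 1.5 mg/kg bw/d, but 1 with a mean of at least 5, 2 in the 2 groups alone, 1 without the 8 libraries and 1 with no log2FC threshold. At 15 mg/kg bw/d the 8 libraries left out gave 0 and no threshold 10, and at 150 mg/kg bw/d pseudocount 5 gave 0. Count models were planned only for counts and were not run. The F test uses no log2FC threshold, so that alternative was void for it. Values near 1 fragment limit what can be seen of most members.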
